A study of Mus musculus with 20 samples.

Results

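Expression of 34 lysosomal genes was examined in the mouse hippocampus: hydrolases, their activator proteins, membrane proteins, transporters, progranulin and the transcription factors Tfeb and Tfe3, which act on lysosomal genes. They were taken as a list of gene symbols, with the cathepsins and the proton pump (V-ATPase) left out, and are 34 of the 39056 genes counted. All 34 passed the filter on low counts, as did 16107 genes in all. The lysosome is the membrane-bound compartment in which cells break down proteins, lipids, complex sugars and engulfed material. Soluble acid hydrolases are sorted into it from the Golgi apparatus, and its membrane is protected by heavily glycosylated proteins and carries the channels and transporters that return the products to the cytoplasm. In the brain, inherited loss of single hydrolases causes storage diseases, and microglia, the resident phagocytes, depend on lysosomes to degrade the material they take up, amyloid included.

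The samples were left hippocampi of 20 mice, 1 library per mouse and 5 mice in each of 4 groups. The groups crossed constitutive whole-body loss of miR-34a (miR34a-/-, here KO) or its presence (miR34a+/+, here WT) with the Tg-SwDI transgene, which drives human APP carrying the Swedish, Dutch and Iowa mutations from the neuronal Thy1 promoter, or its absence (Non-Tg). They are called WT Non-Tg, KO Non-Tg, WT Tg-SwDI and KO Tg-SwDI. All mice were females on the C57BL/6 background. Behavioural tests were run at 12 months of age and tissue was taken afterwards from mice under ketamine and xylazine anaesthesia, perfused with buffer, so that the mice were older than 12 months at collection. Each library held between 19549622 and 21066868 counted reads. Values are given as CPM, in which a gene's read count is scaled to the effective total of its library, and the 5 values of a group are listed in the order of the library numbers in the labels: 2, 3, 4, 6 and 7 for WT Non-Tg, 1, 2, 4, 7 and 8 for KO Non-Tg, 3, 4, 5, 6 and 7 for WT Tg-SwDI, and 1, 2, 3, 5 and 8 for KO Tg-SwDI.

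The members lie on 16 chromosomes, with 5 each on chromosomes 8 and 11. TFEB and TFE3 are known to bind an E-box, CACGTG, in promoters of lysosomal genes, usually flanked as TCACGTG or, in its full palindromic form, GTCACGTGAC. A RefSeq promoter window of 300 bases (250 before to 50 after the start, GRCm38.p6) was at hand for 30 of the 34 genes, and not for Asah1, Galns, Npc1 and Plbd2. CACGTG, which reads the same on both strands, was in 8 of the 30 windows (26.7%): those of Lamp1, Mcoln1, Cln3, Gla, Glb1, Arsa, Naglu and Gaa. It was in 8.09% of the windows of all 27025 genes with one and in 11.1% of those of the 12054 tested here. The same 8 windows held TCACGTG on either strand, a longer form of the same match, against 4.29% of all windows and 6.46% of tested ones. The full palindrome GTCACGTGAC, which contains both shorter motifs, was in 1 of the 30 (Cln3, 3.33%) against 0.37% of all windows and 0.664% of tested ones. The windows below are shown because these genes carry the match and include genes called in both, in 1 and in neither of the transgene comparisons below. Capitals mark the E-box and the flanking bases that belong to the palindrome, and positions are those of the first E-box base relative to the transcription start.
Lamp1, chr8:13159088-13159117, plus strand, position -61: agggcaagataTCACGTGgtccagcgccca
Cln3, chr7:126583340-126583369, minus strand, position -121: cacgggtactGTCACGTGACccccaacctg
Mcoln1, chr8:3500462-3500491, plus strand, position -45: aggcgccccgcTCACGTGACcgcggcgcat
Glb1, chr9:114401018-114401047, plus strand, position -48: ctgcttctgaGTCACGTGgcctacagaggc
Naglu, chr11:101070009-101070038, plus strand, position -73: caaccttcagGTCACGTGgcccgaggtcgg
Gaa, chr11:119267811-119267840, plus strand, position -140: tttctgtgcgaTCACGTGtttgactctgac
The Lamp1 window held 4 such matches, between positions -61 and -15. No window of Slc11a1, Laptm5, Gusb, Hexa, Man2b1 or Grn, the genes with the largest differences below, held these letters. A match is a description of the sequence and not evidence of binding.

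The microRNA removed in the KO mice pairs with its targets mainly through its seed, bases 2 to 8, given in capitals.
miR-34a-5p, chr4:150068473-150068494, plus strand, GRCm38.p6: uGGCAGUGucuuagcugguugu
The 7 bases that match this seed, CACTGCC, were searched on the transcript strand in the longest annotated 3′ UTR of each gene (GENCODE M21). They were in 5 of the 34 members (14.7%), namely Arsb, Gaa, Galns, Hexa and Ppt1, and in 17.3% of the 14706 tested genes with an annotated 3′ UTR. The longer form CACTGCCA was in 0 of the 34, against 6.03% of those genes. The median 3′ UTR was 1205.5 bases long for the members and 1200 for the tested genes. The sites of Galns and Hexa are shown because Galns was called between KO and WT Tg-SwDI mice and Hexa had one of the largest transgene differences, as given below.
Galns, site at chr8:122578648-122578654, minus strand: ggtggcatctgCACTGCCccatggagatgg
Hexa, site at chr9:59564995-59565001, plus strand: ggctaatctttCACTGCCtcccggccaggg

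Before the fold changes, 2 features of the libraries have to be stated. The first is choroid plexus, the ventricular tissue beside the hippocampus. Its transcript Ttr stood at 31.4 to 277 CPM in all 5 KO Non-Tg mice, at 29.8 to 3898 CPM in WT Non-Tg mice, and above 2000 CPM in 4 of 5 WT Tg-SwDI and 4 of 5 KO Tg-SwDI mice. Among KO mice the signal of this tissue thus separated the Non-Tg from the Tg-SwDI group in all but 1 mouse, KO Tg-SwDI replicate 2. The second is KO Tg-SwDI replicate 8, in which mitochondrial genes took 14.6% of the counts against 6.94% to 8.76% in the other 19 libraries. Some of the counts below, not all, are also given without the libraries rich in choroid plexus or without KO Tg-SwDI replicate 8. Thy1, whose promoter the transgene carries, stood at 685 to 769 CPM in Non-Tg and at 1905 to 3318 CPM in Tg-SwDI mice, without overlap. The loss of miR-34a was not checked in these mRNA libraries.

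Per base of transcript, the members covered a wide range. In WT Non-Tg mice Psap, which encodes the precursor of the saposins, stood highest at 597 ± 20.9 RPKM, the CPM per kilobase of exon (mean ± SD, n = 5). Ids, a sulfatase of heparan and dermatan sulfate breakdown, followed at 127 ± 1.74 RPKM, Lamp1 at 119 ± 4.64 RPKM and Gaa, acid alpha-glucosidase, at 91.3 ± 2.47 RPKM. Slc11a1, a metal ion transporter of phagocyte endosomes and lysosomes, was lowest at 0.977 ± 0.153 RPKM, followed upward by Manba at 1.80 ± 0.107 RPKM and Tfeb at 1.89 ± 0.216 RPKM. The Manba and Tfeb levels overlap within their SDs. In KO Tg-SwDI mice Slc11a1 stood at 5.07 ± 0.782 RPKM, and Grn at 45.8 ± 4.79 RPKM against 17.9 ± 1.14 RPKM in WT Non-Tg mice. Psap, Ids, Lamp1 and Gaa kept the 4 highest places in that group. Slc11a1 had 40 counts in its weakest library, so that for the lowest members counting error makes up much of the spread between mice, while for abundant members it is small beside it.

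**Figure D1:**
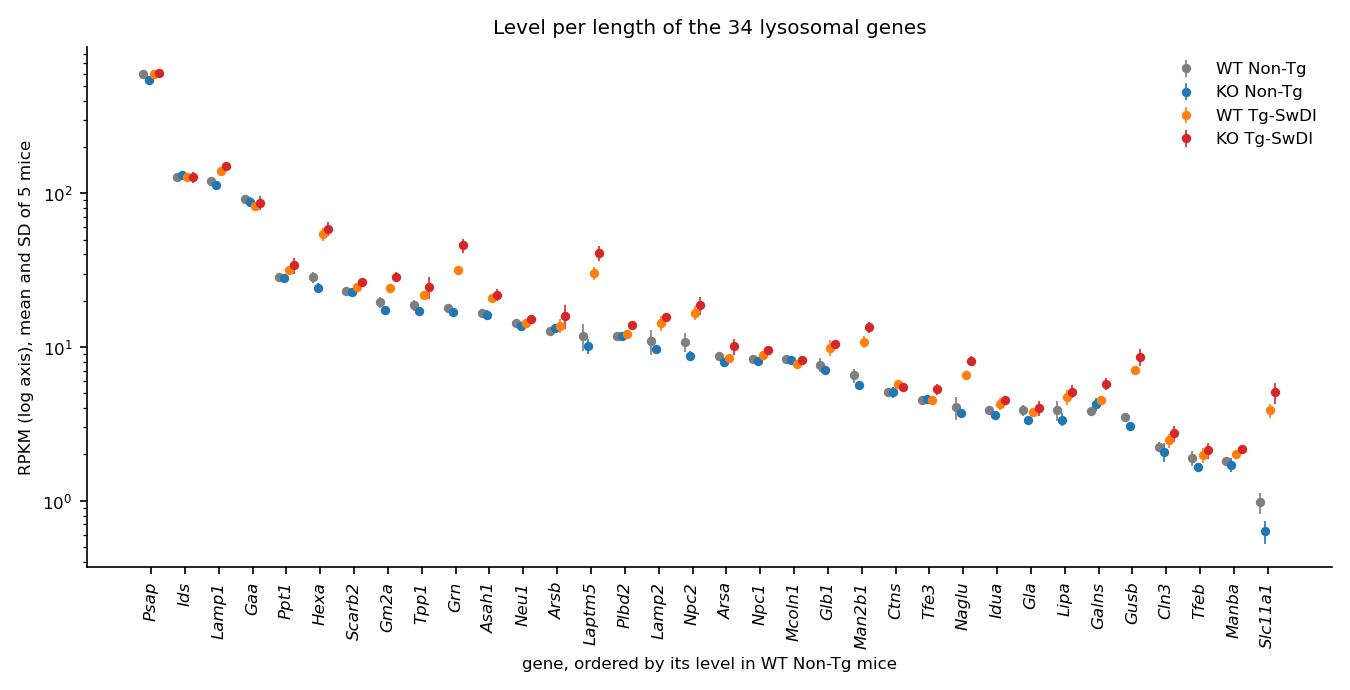
Level per length (RPKM, log axis) of the 34 lysosomal genes, ordered by their level in WT Non-Tg mice; points are means and bars SDs of 5 mice, in 4 colours for the 4 groups. Psap lies at 597 RPKM and Slc11a1 near 1 RPKM in WT Non-Tg mice, and the groups separate most at Slc11a1, Laptm5 and Gusb.

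The first question was which lysosomal genes differ between Tg-SwDI mice and their Non-Tg counterparts, within each miR-34a genotype. In WT mice 13 of the 34 genes were higher with the transgene and none was lower, where 3.94% of the 16107 genes tested were called higher and 0.466% lower (edgeR's quasi-likelihood test, Benjamini-Hochberg adjusted p under 0.05 over all genes tested). In KO mice 30 of the 34 were higher and none was lower, where 12.5% of all genes were called higher and 8.31% lower. The median log2 fold change of the 34 genes was 0.16 in WT and 0.38 in KO mice, beside a median of all tested genes within 0.01 of 0 in both. The 13 genes called in WT mice were all called in KO mice, 17 more were called in KO mice alone, and Mcoln1, Ctns, Ids and Gaa were called in neither. A call in one genotype and not in the other does not show a difference between them, and the test of that difference is given further on. In 15 genes every WT Tg-SwDI mouse stood above every WT Non-Tg mouse (5.1% of all genes did so), and in 27 genes the same held in KO mice (8.47% of all genes). In bulk tissue, more RNA per cell and more cells of a type that express a gene cannot be told apart.

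The KO count was lower in both fits that took account of choroid plexus. It was 25 with a choroid plexus score as a covariate, where Arsb, Gla, Neu1, Psap and Tfeb were lost, and 20 when only the 9 libraries with at most 1000 CPM of Ttr were fitted, an alternative chosen after the data were seen. That fit left out 11 of the 20 mice and had 1 mouse in each Tg-SwDI group, assumed to vary like the others, so that less choroid plexus and fewer mice cannot be told apart in it. The genes lost in the 9 libraries were Tfe3, Psap, Neu1, Arsa, Manba, Ppt1, Plbd2, Cln3, Gla and Idua, and the median log2 fold change of the 34 genes stayed at 0.38. In WT mice the count was 13 with the covariate and 10 in the 9 libraries, where Lamp1, Glb1 and Asah1 were lost (edgeR, adjusted p = 0.126, 0.272 and 0.0866). Without KO Tg-SwDI replicate 8, the counts were 15 in WT and 28 in KO mice. The scaling moved the calls over all genes more than those of the members. In KO mice all genes gave 2013 higher and 1338 lower, against 1675 and 1792 with library size alone and 1498 and 2999 once GC content and length trends were removed, while the members gave 30, 28 and 26 higher and none lower. In WT mice all genes gave 635 higher and 75 lower, against 564 and 149 with the GC content and length trends removed, where 12 members were higher.

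**Figure D2:**
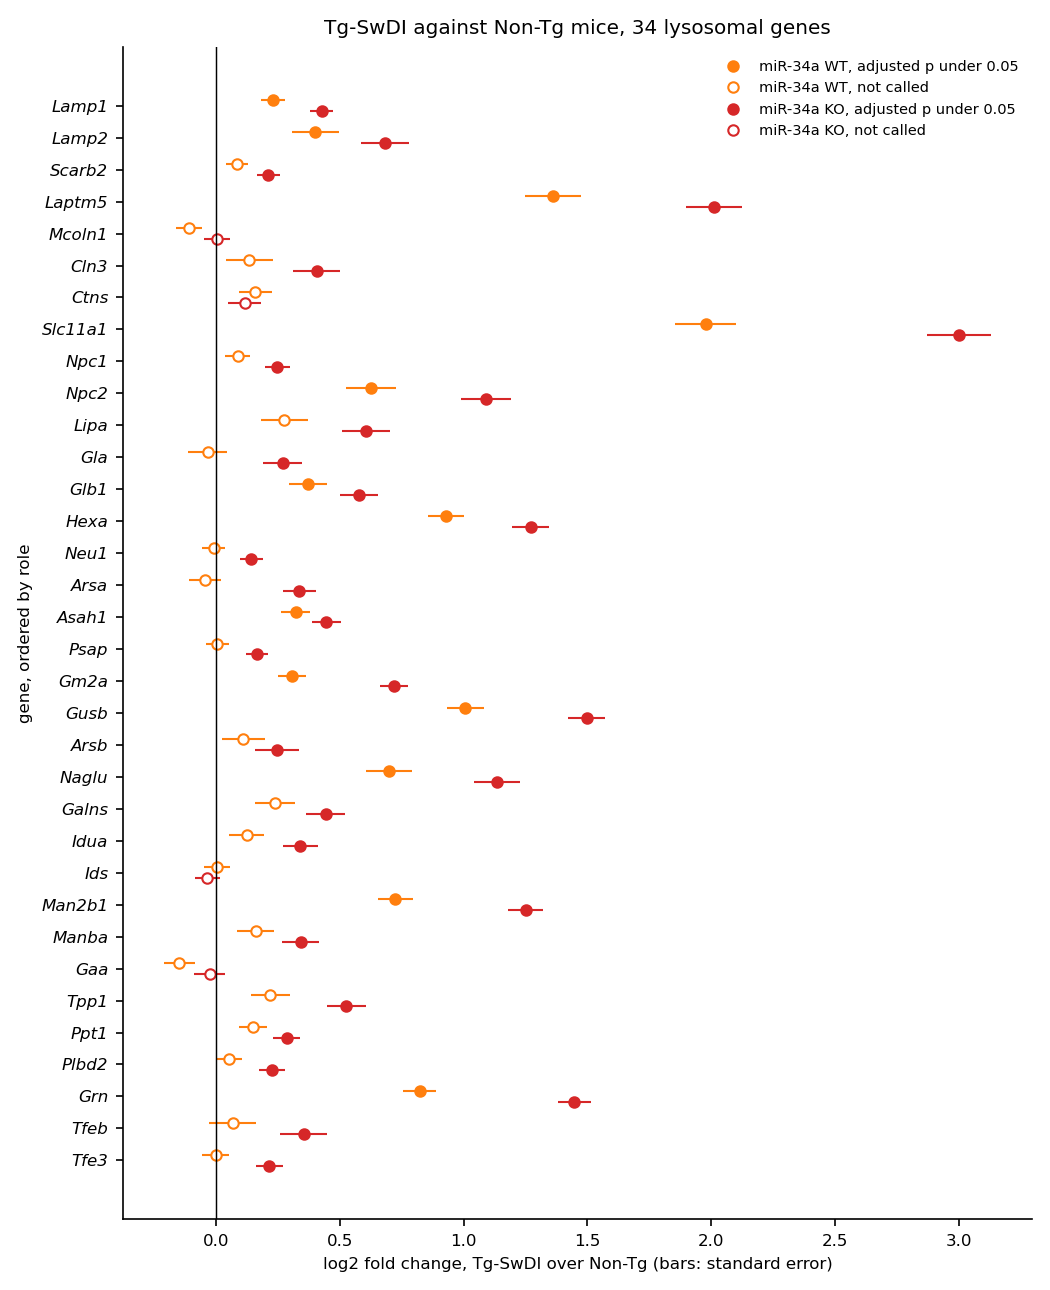
Log2 fold change of Tg-SwDI over Non-Tg mice for each of the 34 genes, ordered by role, in miR-34a WT (orange) and KO (red) mice; bars are standard errors and filled points have an adjusted p under 0.05. Slc11a1 (1.98 and 3.0), Laptm5 (1.36 and 2.01) and Gusb (1.01 and 1.5) lie farthest to the right, and no filled point lies below 0.

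Of the 4 structural and membrane-associated proteins, 3 rose with the transgene in WT and all 4 in KO mice. LAPTM5, a lysosomal membrane protein of immune cells, led them. Laptm5 stood at 59.6, 38.4, 45.9, 38.5 and 40.0 CPM in WT Non-Tg mice and at 101, 123, 109.8, 128 and 109.7 CPM in WT Tg-SwDI mice. In KO Non-Tg mice it stood at 43.3, 42.1, 36.2, 33.8 and 36.5 CPM, and in KO Tg-SwDI mice at 161, 171, 139, 134 and 169 CPM. Neither pair of groups overlapped, and the lowest KO Tg-SwDI mouse was above the highest WT Tg-SwDI mouse. The log2 fold change was 1.36 ± 0.11 (SE) in WT mice, or 2.57-fold, and 2.01 ± 0.11 in KO mice, or 4.03-fold (edgeR's quasi-likelihood test, adjusted p = 3.47e-08 and 3.73e-11). LAMP1 and LAMP2 form most of the protein coat of the lysosomal membrane, and LAMP2A is the receptor of chaperone-mediated autophagy. Lamp1 stood at 331, 305, 333, 309 and 319 CPM in WT Non-Tg and at 363, 388, 394, 377 and 351 CPM in WT Tg-SwDI mice. In KO mice Lamp1 stood at 296, 309, 298, 290.2 and 312 CPM without and at 373, 429, 417, 384 and 420.0 CPM with the transgene. All Tg-SwDI mice were above all Non-Tg mice of their genotype, but the shift was small, 0.23 ± 0.05 in WT and 0.43 ± 0.05 in KO mice on the log2 scale (edgeR, adjusted p = 0.00237 and 1.62e-07). Lamp2 rose by 0.40 ± 0.10 and 0.68 ± 0.10 (edgeR, adjusted p = 0.013 and 1.83e-05), with overlap between the WT groups, where 1 WT Non-Tg mouse reached 131 CPM and 1 WT Tg-SwDI mouse was at 112 CPM. Its WT call was lost when the 10 WT mice were fitted alone and with GC content and length trends removed (edgeR, adjusted p = 0.126 and 0.0672). Scarb2, which encodes LIMP-2, the receptor that carries glucocerebrosidase to lysosomes, rose in KO mice by 0.21 ± 0.04 (edgeR, adjusted p = 0.0012), against 0.08 ± 0.04 in WT mice (adjusted p = 0.396).

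Among the 4 transporters and channels, Slc11a1 had the largest transgene difference of all 34 genes, and the others differed little. Slc11a1 (NRAMP1, chr1:74375195-74386062, plus strand, mm10) stood at 4.49, 3.03, 3.57, 3.25 and 3.77 CPM in WT Non-Tg mice and at 13.6, 15.9, 15.9, 13.7 and 12.5 CPM in WT Tg-SwDI mice. In KO mice Slc11a1 stood at 2.82, 1.94, 2.56, 2.45 and 1.93 CPM without and at 19.8, 22.9, 16.6, 15.5 and 19.1 CPM with the transgene. The Non-Tg and Tg-SwDI mice were far apart in both genotypes, and the 5 KO Non-Tg mice were also all below the 5 WT Non-Tg mice. The log2 fold change was 1.98 ± 0.12 in WT mice (3.94-fold) and 3.0 ± 0.13 in KO mice (8.0-fold; edgeR, adjusted p = 1.74e-11 and 5.73e-15). Mcoln1 encodes the calcium channel TRPML1 of the lysosomal membrane. It stood between 58.8 and 67.4 CPM in WT Non-Tg and between 54.8 and 63.1 CPM in WT Tg-SwDI mice, with overlap, at -0.11 ± 0.05 on the log2 scale (edgeR, adjusted p = 0.33). In KO mice Mcoln1 ran from 60.1 to 64.6 CPM without and from 56.0 to 67.1 CPM with the transgene, at 0.01 ± 0.05 (adjusted p = 0.956). Ctns, the cystine exporter, differed by 0.16 ± 0.07 in WT and 0.12 ± 0.07 in KO mice (edgeR, adjusted p = 0.227 and 0.228). Cln3, the gene of juvenile neuronal ceroid lipofuscinosis, rose in KO mice by 0.41 ± 0.10 (edgeR, adjusted p = 0.00353), though its KO groups overlapped, and differed by 0.13 ± 0.10 in WT mice (adjusted p = 0.565).

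The 3 genes of cholesterol and neutral lipid handling all rose in KO mice, and 1 of them, Npc2, in WT mice. NPC2 is the soluble protein that hands cholesterol to the membrane protein NPC1 for export from the lysosome. Npc2 stood at 66.3, 49.9, 61.9, 49.0 and 66.5 CPM in WT Non-Tg and at 81.8, 98.2, 97.1, 97.5 and 78.7 CPM in WT Tg-SwDI mice. In KO mice Npc2 stood at 48.5, 54.0, 46.9, 44.3 and 44.8 CPM without and at 109.5, 109, 113, 94.8 and 81.3 CPM with the transgene. The groups did not overlap within either genotype, with log2 fold changes of 0.63 ± 0.10 and 1.09 ± 0.10 (edgeR, adjusted p = 0.000261 and 5.65e-08). Npc1 and Lipa, the acid lipase that frees cholesterol from its esters, rose in KO mice by 0.25 ± 0.05 and 0.60 ± 0.10 (edgeR, adjusted p = 0.000696 and 5.3e-05). In WT mice they were at 0.09 ± 0.05 and 0.28 ± 0.10 (adjusted p = 0.434 and 0.122).

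All 6 glycosphingolipid hydrolases rose in KO mice, and 3 of them, Hexa, Glb1 and Asah1, in WT mice. Hexa encodes the alpha subunit of the hexosaminidase that degrades ganglioside GM2. It stood at 62.4, 50.3, 58.6, 54.8 and 57.5 CPM in WT Non-Tg mice and at 99.2, 111, 123, 110.3 and 96.6 CPM in WT Tg-SwDI mice. In KO mice Hexa stood at 53.0, 50.4, 45.8, 46.0 and 47.8 CPM without and at 124, 130.3, 125, 107 and 101 CPM with the transgene. The transgene groups were apart in both genotypes, 1.90-fold in WT and 2.41-fold in KO mice, while the WT and KO Tg-SwDI mice overlapped (0.93 ± 0.07 and 1.27 ± 0.07 on the log2 scale; edgeR, adjusted p = 1.62e-09 and 1.54e-12). Glb1, lysosomal beta-galactosidase, rose by 0.37 ± 0.08 and 0.58 ± 0.08, and Asah1, acid ceramidase, by 0.32 ± 0.06 and 0.45 ± 0.06 in WT and KO mice. Arsa, the sulfatase of myelin sulfatide, stood at 33.6, 31.7, 32.0, 30.9 and 33.3 CPM in WT Non-Tg and at 31.1, 28.9, 31.6, 32.5 and 32.6 CPM in WT Tg-SwDI mice, which overlapped. In KO mice Arsa stood at 29.1, 30.1, 30.1, 26.7 and 31.2 CPM without and at 35.6, 33.3, 34.8, 37.2 and 44.9 CPM with the transgene, without overlap. Its log2 fold change was -0.04 ± 0.07 in WT and 0.34 ± 0.07 in KO mice (edgeR, adjusted p = 0.825 and 0.000576). Neu1, lysosomal sialidase, and Gla, alpha-galactosidase A, rose in KO mice by 0.14 ± 0.05 and 0.27 ± 0.08 (edgeR, adjusted p = 0.0288 and 0.0195). The Neu1 call was lost without KO Non-Tg replicate 1, 2 or 4 or KO Tg-SwDI replicate 3 or 8 (adjusted p = 0.0711, 0.0659, 0.0572, 0.051 and 0.0559), and the Gla call without KO Tg-SwDI replicate 1 (adjusted p = 0.053). Both were also lost with library size alone (edgeR, adjusted p = 0.109 for Neu1 and 0.0702 for Gla), with the choroid plexus covariate (0.273 and 0.0969) and with GC content and length trends removed (0.962 and 0.0834), where the Neu1 log2 fold change was 0.0041. The Neu1 call was lost as well without the filter on low counts and with the 10 KO mice alone (edgeR, adjusted p = 0.0802 and 0.0824).

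The sphingolipid activator proteins present lipids to these enzymes, and of the pair measured here Gm2a rose in both genotypes and Psap in KO mice. Gm2a encodes the activator that lifts GM2 for hexosaminidase A. It stood at 83.2, 72.0, 88.1, 76.4 and 84.9 CPM in WT Non-Tg and at 92.4, 104, 103, 106 and 94.6 CPM in WT Tg-SwDI mice. In KO mice Gm2a stood at 73.4, 74.4, 68.5, 71.4 and 72.3 CPM without and at 112, 112, 119, 117 and 133 CPM with the transgene. Each step from KO Non-Tg to WT Tg-SwDI to KO Tg-SwDI was free of overlap, with log2 fold changes of 0.31 ± 0.06 in WT and 0.72 ± 0.06 in KO mice (edgeR, adjusted p = 0.000798 and 5e-10). Psap stood at 1676, 1572, 1689, 1577 and 1671 CPM in WT Non-Tg and at 1569, 1657, 1613, 1775 and 1604 CPM in WT Tg-SwDI mice, with overlap, at 0.01 ± 0.04 on the log2 scale (edgeR, adjusted p = 0.974). In KO mice Psap stood at 1509, 1524, 1492, 1422 and 1504 CPM without and at 1669, 1622, 1691, 1739.7 and 1635 CPM with the transgene, without overlap, and rose by 0.17 ± 0.04 (edgeR, adjusted p = 0.0101). This call was lost with the choroid plexus covariate (edgeR, adjusted p = 0.159) and with GC content and length trends removed (adjusted p = 0.949), where the log2 fold change was 0.0047. The KO Tg-SwDI mice overlapped both WT groups, and the KO Non-Tg mice were all below every mouse of the other groups.

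Of the 6 glycosaminoglycan hydrolases, Gusb and Naglu rose in WT mice, and 5, all but Ids, in KO mice. Gusb encodes beta-glucuronidase. It stood at 16.1, 14.8, 16.6, 14.99 and 17.04 CPM in WT Non-Tg mice and at 29.95, 31.3, 30.9, 33.7 and 34.2 CPM in WT Tg-SwDI mice. In KO mice Gusb stood at 14.6, 14.9, 12.9, 13.4 and 13.4 CPM without and at 42.8, 44.5, 39.6, 35.9 and 32.9 CPM with the transgene. The lowest Tg-SwDI mouse of either genotype was well above the highest Non-Tg mouse, 2.01-fold on average in WT and 2.82-fold in KO mice (1.01 ± 0.07 and 1.5 ± 0.07 on the log2 scale; edgeR, adjusted p = 3.17e-10 and 7.2e-14). Naglu, the alpha-N-acetylglucosaminidase of heparan sulfate breakdown, stood at 12.2, 9.97, 11.6, 7.90 and 12.2 CPM in WT Non-Tg and at 16.2, 17.4, 18.3, 19.04 and 16.5 CPM in WT Tg-SwDI mice. In KO mice Naglu stood at 9.38, 11, 9.70, 9.16 and 10.01 CPM without and at 22.2, 23.8, 21.3, 19.6 and 21.5 CPM with the transgene. Neither pair overlapped, with log2 fold changes of 0.70 ± 0.09 and 1.14 ± 0.09 (edgeR, adjusted p = 6.97e-06 and 6.63e-10). Galns, a sulfatase of keratan and chondroitin sulfate, stood at 9.41, 9.87, 10.2, 10.99 and 10.6 CPM in WT Non-Tg and at 12.5, 12.4, 11.9, 11.7 and 11.6 CPM in WT Tg-SwDI mice. In KO mice Galns stood at 12.9, 11.6, 11.1, 10.5 and 10.1 CPM without and at 15.1, 16.8, 13.2, 14.8 and 16.5 CPM with the transgene. Both pairs were free of overlap, but the WT difference of 0.24 ± 0.08 missed the threshold and the KO difference of 0.44 ± 0.08 passed it (edgeR, adjusted p = 0.107 and 0.000178). Ids stood between 638 and 659.6 CPM in WT Non-Tg and between 607 and 683 CPM in WT Tg-SwDI mice, with log2 fold changes of 0.00 ± 0.05 in WT and -0.04 ± 0.05 in KO mice (edgeR, adjusted p = 0.991 and 0.681). Idua, alpha-L-iduronidase, and Arsb, arylsulfatase B, rose in KO mice by 0.34 ± 0.07 and 0.25 ± 0.09. The Arsb call was marginal (edgeR, adjusted p = 0.0496) and its KO groups overlapped. It was lost without any 1 of 16 of the 20 mice, with an adjusted p of up to 0.144, without KO Tg-SwDI replicate 8. The Arsb call was also lost with RLE factors, without the filter on low counts, with the 10 KO mice alone, with the choroid plexus covariate and with GC content and length trends removed (edgeR, adjusted p = 0.0537, 0.0964, 0.116, 0.157 and 0.122).

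The 3 hydrolases of glycoproteins and glycogen behaved in separate ways. Man2b1, lysosomal alpha-mannosidase, stood at 59.7, 47.7, 50.2, 48.1 and 56.3 CPM in WT Non-Tg and at 85.5, 86.0, 82.8, 99.0 and 79.5 CPM in WT Tg-SwDI mice. In KO mice Man2b1 stood at 46.3, 47.4, 47.5, 40.8 and 44.1 CPM without and at 109, 119.9, 106, 95.6 and 108 CPM with the transgene. Neither pair overlapped, and Man2b1 rose by 0.72 ± 0.07 in WT and 1.25 ± 0.07 in KO mice (edgeR, adjusted p = 3.66e-08 and 6.65e-13), the latter 2.38-fold. Manba, beta-mannosidase, rose in KO mice by 0.34 ± 0.08 (adjusted p = 0.00178), against 0.16 ± 0.08 in WT mice (adjusted p = 0.304). Gaa stood at 451, 426, 439, 423 and 444 CPM in WT Non-Tg and at 384, 388, 387, 423 and 388 CPM in WT Tg-SwDI mice. In KO mice Gaa stood at 414, 452, 456, 377 and 407 CPM without and at 354, 420.0, 389, 453 and 452 CPM with the transgene. In WT mice 4 of the 5 Tg-SwDI mice were below all Non-Tg mice, and the KO groups overlapped. Its log2 fold changes of -0.15 ± 0.06 and -0.03 ± 0.06 were not called (edgeR, adjusted p = 0.225 and 0.803), although the WT difference was called lower when the 10 WT mice were fitted alone (adjusted p = 0.0291).

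Tpp1, Ppt1 and Plbd2, the protein and acyl hydrolases, rose in KO mice and were not called in WT mice. Tpp1, tripeptidyl peptidase 1, and Ppt1, palmitoyl-protein thioesterase 1, are the genes of the late infantile and infantile ceroid lipofuscinoses. Tpp1 was at 0.22 ± 0.08 in WT and 0.53 ± 0.08 in KO mice, and Ppt1 at 0.15 ± 0.05 and 0.28 ± 0.05 (edgeR, adjusted p = 0.138, 2.17e-05, 0.153 and 0.000477). Plbd2, a phospholipase B-like protein, stood at 74.9, 80.6, 80.8, 76.96 and 74.0 CPM in WT Non-Tg and at 79.4, 76.4, 77.8, 85.9 and 82.0 CPM in WT Tg-SwDI mice. In KO mice Plbd2 stood at 75.2, 83.4, 79.9, 76.2 and 76.96 CPM without and at 84.8, 87.5, 97.2, 88.2 and 100.3 CPM with the transgene. The WT groups overlapped and the KO groups did not, at 0.05 ± 0.05 and 0.23 ± 0.05 on the log2 scale (edgeR, adjusted p = 0.709 and 0.00229).

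Grn encodes progranulin, which is secreted, taken up into lysosomes and cut there into granulins, and whose loss causes frontotemporal dementia or, when complete, a lysosomal storage disease. The gene (ENSMUSG00000034708) lies at chr11:102430315-102437048 on the plus strand (mm10). Grn stood at 68.4, 58.1, 62.9, 59.8 and 61.2 CPM in WT Non-Tg mice and at 100.2, 108, 110.4, 120.0 and 110.4 CPM in WT Tg-SwDI mice. In KO mice Grn stood at 61.3, 63.9, 57.1, 54.5 and 54.5 CPM without and at 177, 175, 157, 140.4 and 145 CPM with the transgene. The Non-Tg groups overlapped, all WT Tg-SwDI mice were above them, and all KO Tg-SwDI mice were above the WT Tg-SwDI mice. Grn rose with the transgene by 0.82 ± 0.07 in WT (1.77-fold) and by 1.45 ± 0.07 in KO mice (2.73-fold; edgeR, adjusted p = 1.83e-09 and 2.11e-14).

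Both transcription factors had small fold changes, called in KO mice and not in WT mice. Tfeb stood at 12.1, 9.37, 11.9, 10.2 and 9.88 CPM in WT Non-Tg and at 10.5, 11.6, 10.8, 13.1 and 9.998 CPM in WT Tg-SwDI mice. In KO mice Tfeb stood at 9.998, 9.67, 8.83, 9.36 and 9.19 CPM without and at 11.3, 14.6, 11.8, 11.4 and 11.1 CPM with the transgene. The WT groups overlapped (0.07 ± 0.09) and the KO groups did not (0.35 ± 0.09; edgeR, adjusted p = 0.811 and 0.00886). The KO call of Tfeb was lost with the choroid plexus covariate (edgeR, adjusted p = 0.0675). Tfe3 stood at 43.2, 43.7, 42.3, 41.4 and 39.2 CPM in WT Non-Tg and at 40.3, 39.9, 41.5, 43.0 and 44.9 CPM in WT Tg-SwDI mice. In KO mice Tfe3 stood at 45.5, 41.9, 42.3, 39.8 and 43.0 CPM without and at 47.6, 47.8, 46.2, 48.8 and 56.2 CPM with the transgene. The KO Tg-SwDI mice were above every mouse of the other groups, and the transgene difference was 0.21 ± 0.06 in KO and 0.00 ± 0.06 in WT mice (edgeR, adjusted p = 0.00696 and 0.995). These are RNA levels, and the activity of both factors is known to be set largely by their location in the cell. Of the 8 genes with an E-box in the promoter window, Lamp1, Glb1 and Naglu rose in both genotypes, Cln3, Gla and Arsa in KO mice, and Mcoln1 and Gaa in neither.

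**Figure D3:**
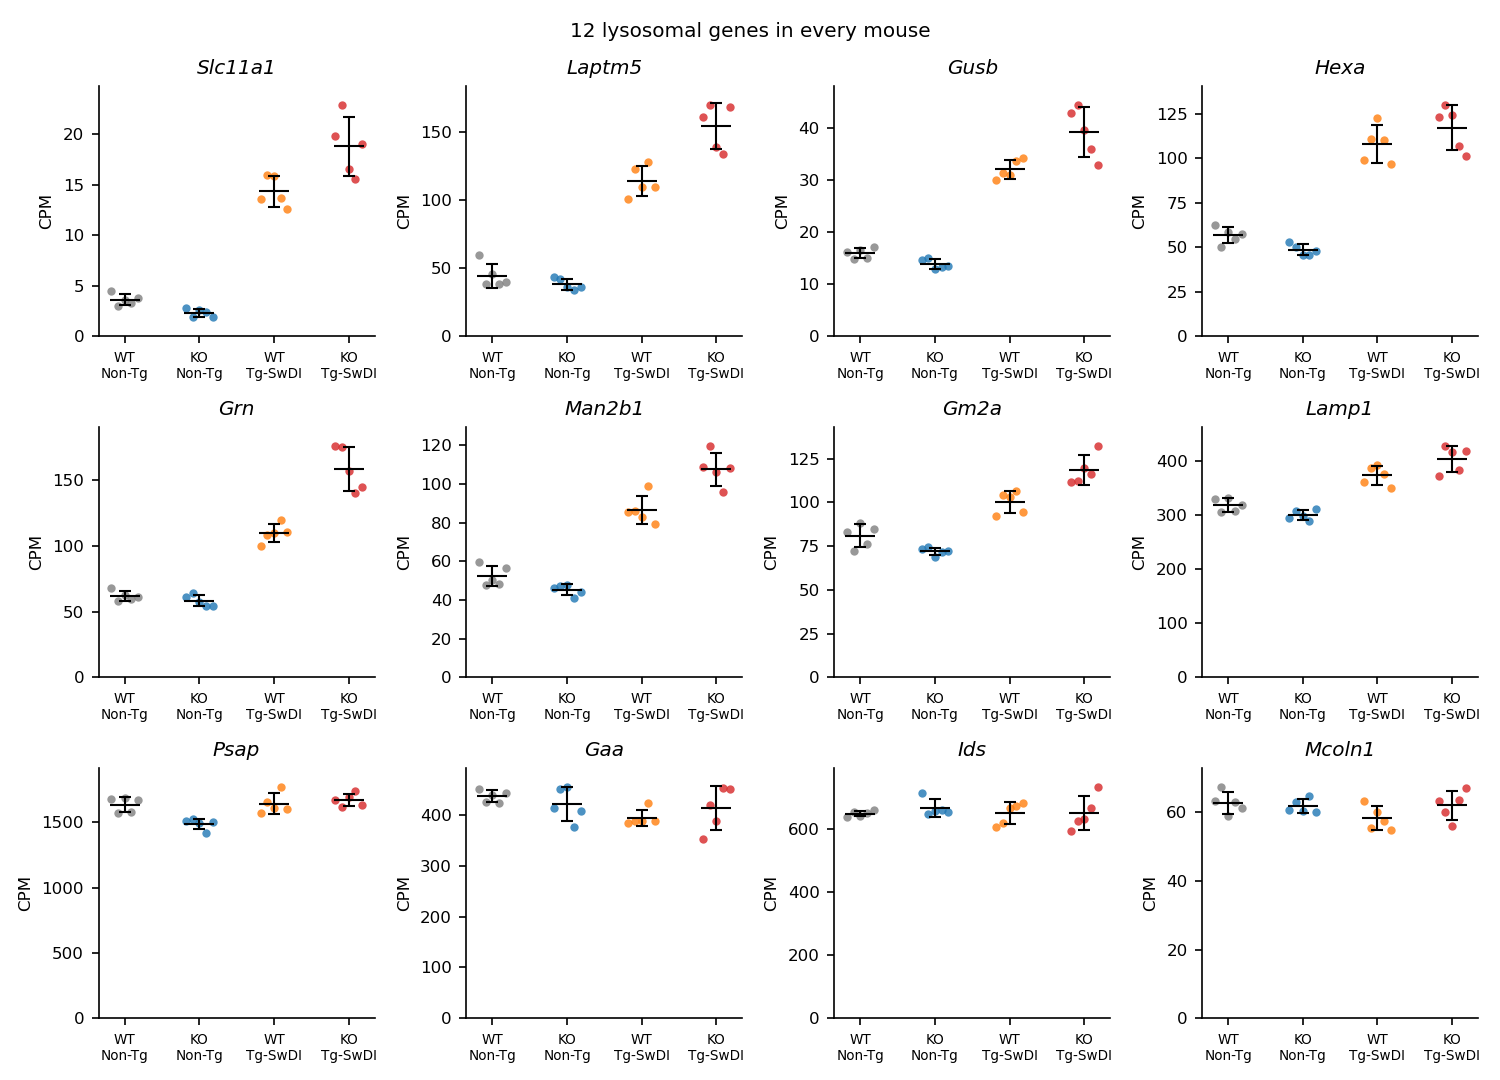
CPM of 12 of the lysosomal genes in every mouse, with 1 panel per gene and a y axis from 0; coloured points are mice, and black marks are the mean and SD of the 5 mice of a group. Slc11a1, Laptm5, Gusb, Hexa, Grn and Man2b1 show both Tg-SwDI groups above both Non-Tg groups, while Ids, Gaa and Mcoln1 show overlapping groups.

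The second question was whether lysosomal genes differ between KO and WT mice that both carry the transgene. The Thy1 levels of these groups also differed, as given above. Here 9 of the 34 genes were higher in KO Tg-SwDI than in WT Tg-SwDI mice and none was lower, where 1.48% of all tested genes were called higher and 0.503% lower (edgeR's quasi-likelihood test, adjusted p under 0.05). The median log2 fold change of the 34 was 0.12, with 33 of 34 fitted above 0 where 50.7% of all genes were, and 7 were free of overlap upward against 2.04% of all genes. Grn had the largest difference, 0.53 ± 0.07, with a mean of 159 ± 16.7 CPM against 109.8 ± 7.08 CPM (SD, n = 5 each; edgeR, adjusted p = 0.000121). Laptm5 rose by 0.44 ± 0.11, Galns by 0.34 ± 0.08, Gm2a by 0.24 ± 0.06, Tfe3 by 0.23 ± 0.06 and Arsa by 0.25 ± 0.07 (edgeR, adjusted p = 0.0413, 0.025, 0.0289, 0.0289 and 0.0496). Each of these had all 5 KO Tg-SwDI mice above all 5 WT Tg-SwDI mice. Man2b1, Gusb and Plbd2 rose by 0.31 ± 0.07, 0.29 ± 0.07 and 0.19 ± 0.05 with overlap between the groups (edgeR, adjusted p = 0.0183, 0.0346 and 0.0496). Slc11a1 and Naglu, at 0.39 ± 0.11 and 0.31 ± 0.09, missed the threshold (edgeR, adjusted p = 0.0573 and 0.0662), Slc11a1 with overlap and Naglu without. Of the genes with a miR-34a seed match, Galns was called, while Hexa (0.12 ± 0.07), Arsb (0.21 ± 0.09), Ppt1 (0.10 ± 0.05) and Gaa (0.07 ± 0.06) were not.

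This count of 9 rested on small differences. It was 1 with library size alone in place of TMM factors, a setting that gave 102 genes higher and 115 lower over all genes in place of 239 and 81, 2 when only the 10 mice compared were fitted, 3 with GC content and length trends removed, and 2 in the 9 libraries with little choroid plexus. It was 3, 4, 1 and 2 without WT Tg-SwDI replicate 3, 4, 5 and 7, and 5 without KO Tg-SwDI replicate 3 or 8. DESeq2 and edgeR's exact test each called 11. Grn was called in every alternative that kept more than 1 mouse per group, with the highest adjusted p in the 10 mice compared (edgeR, 0.00441). The fit of the 9 libraries sets 1 KO against 1 WT Tg-SwDI mouse here and gives no replicated test. Of the 20 fits that each left out 1 mouse, Man2b1 was called in 18, Galns and Tfe3 in 17, Gm2a in 15, Gusb in 14, Laptm5 in 10, Plbd2 in 4 and Arsa in 2.

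**Figure D4:**
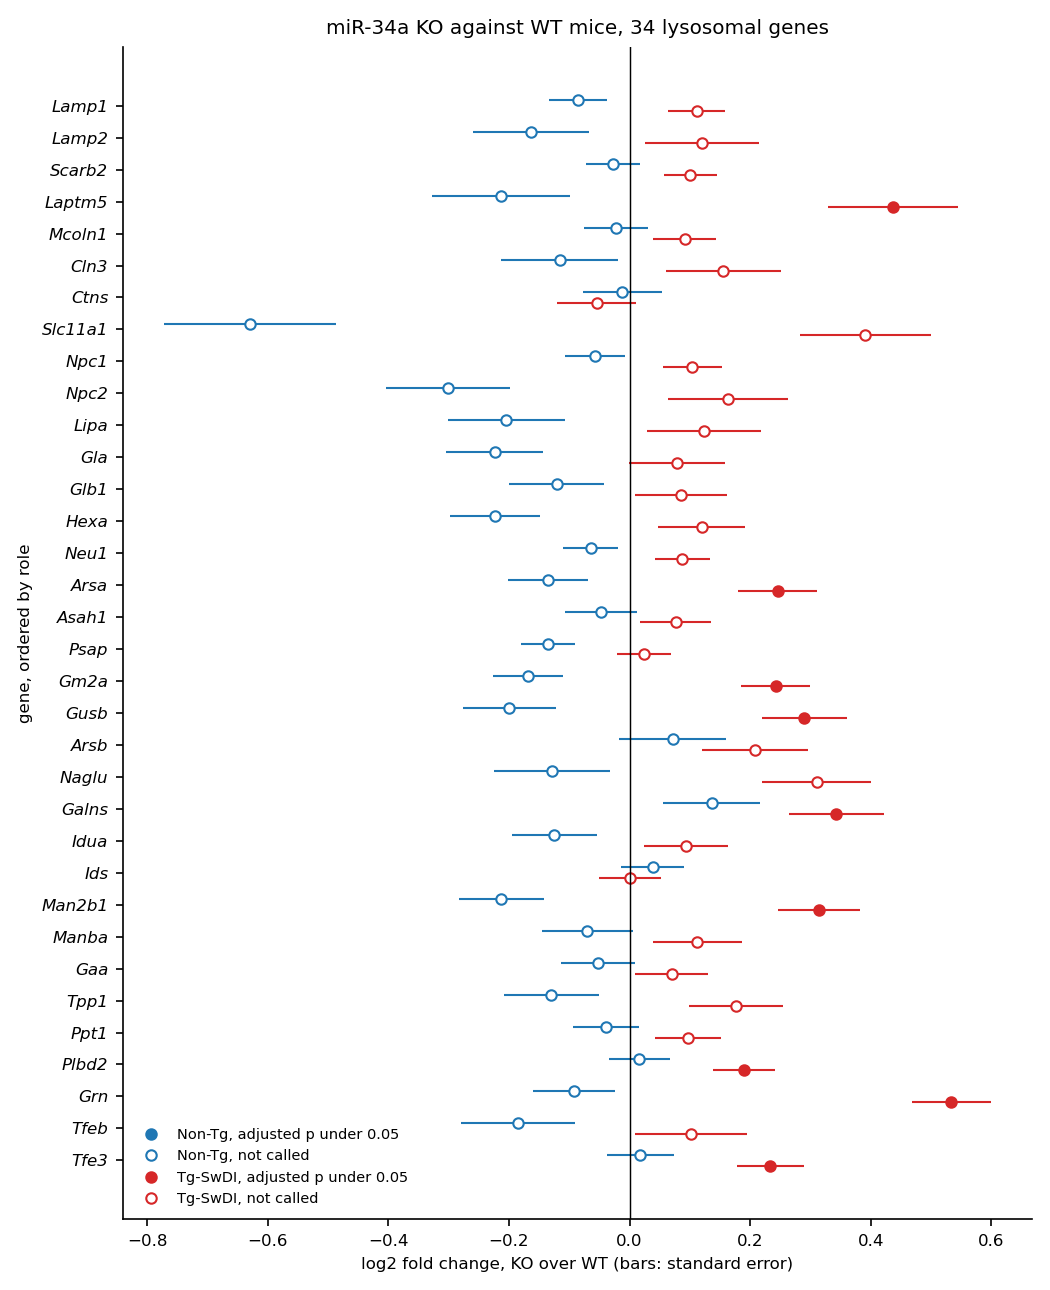
Log2 fold change of KO over WT mice for each of the 34 genes, ordered by role, in Non-Tg (blue) and Tg-SwDI (red) mice; bars are standard errors and filled points have an adjusted p under 0.05. The 9 filled points are all in Tg-SwDI mice, with Grn at 0.53 farthest to the right, and most blue points lie below 0, with Slc11a1 at -0.63 farthest to the left.

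Without the transgene, no lysosomal gene was called different between KO and WT mice, and 0 of all 16107 genes were (0% called; edgeR's quasi-likelihood test). At an unadjusted p under 0.05, 9 of the 34 were lower and 0 higher in KO Non-Tg mice, and 1302 of all genes passed in either direction. DESeq2 and edgeR's exact test also called 0 of the 34. The median log2 fold change was -0.12, with 29 of the 34 genes fitted below 0, where 49.1% of all genes were fitted above 0. Slc11a1, Psap and Man2b1 had all KO Non-Tg mice below all WT Non-Tg mice (0.894% of all genes did so), at -0.63 ± 0.14, -0.14 ± 0.04 and -0.21 ± 0.07 on the log2 scale (edgeR, adjusted p = 0.412, 0.508 and 0.508). Npc2 was at -0.30 ± 0.10 (adjusted p = 0.517). The KO Non-Tg mice are also the group with little choroid plexus in every mouse, beside WT Non-Tg replicates 3 and 6. With a choroid plexus covariate in the fit, the median of the 34 genes was -0.05, and in the 9 libraries with little choroid plexus it was -0.03, where Slc11a1 was at -0.42, Psap at -0.08 and Man2b1 at -0.08 (edgeR, adjusted p = 0.57, 0.636 and 0.782).

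The third question was whether the transgene difference itself differed between genotypes, tested as an interaction. It was larger in KO mice for 5 of the 34 genes and smaller for none, where 0.428% of all genes were called larger and 0.18% smaller (edgeR's quasi-likelihood test, adjusted p under 0.05). They were Slc11a1 (1.02 ± 0.18), Grn (0.63 ± 0.09), Man2b1 (0.53 ± 0.10), Gusb (0.49 ± 0.10) and Gm2a (0.41 ± 0.08, log2 of the ratio of fold changes; edgeR, adjusted p = 0.0156, 0.00861, 0.0199, 0.0264 and 0.0199). All 5 are among the 13 genes that rose with the transgene in both genotypes. Laptm5 (0.65 ± 0.16) and Arsa (0.38 ± 0.09) missed the threshold (edgeR, adjusted p = 0.0574 and 0.0532). The median over the 34 genes was 0.22, beside 0.01 over all genes. KO Non-Tg mice tended to be lower and KO Tg-SwDI mice higher than their WT counterparts, so that both ends enter this value. In the main fit the Slc11a1 difference was larger on the Non-Tg side (-0.63 ± 0.14 against 0.39 ± 0.11). For Grn it was larger on the Tg-SwDI side (-0.09 ± 0.07 against 0.53 ± 0.07). In the 9 libraries with little choroid plexus the order for Slc11a1 turned, at -0.42 against 0.87, with 1 mouse in each Tg-SwDI group. Of the 20 fits that each left out 1 mouse, Grn and Slc11a1 were called in all 20, Man2b1 in 19, Gm2a in 16 and Gusb in 13. The Gusb call was also lost with library size alone and with GC content and length trends removed (edgeR, adjusted p = 0.0814 and 0.0748). The count of 5 became 2 in the 9 libraries with little choroid plexus and 9 with DESeq2. It was 3 without WT Non-Tg replicate 2 or 4 and 2 without KO Non-Tg replicate 7.

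For each mouse the 34 genes were also summarised by 1 value. The median log2 difference of the 34 genes from their WT Non-Tg mean ran from -0.07 to 0.05 in WT Non-Tg mice and from -0.14 to -0.05 in KO Non-Tg mice. It ran from 0.14 to 0.25 in WT Tg-SwDI mice and from 0.24 to 0.41 in KO Tg-SwDI mice. The Tg-SwDI mice were all above the Non-Tg mice, and the WT and KO Tg-SwDI ranges overlapped slightly. The summed level of the 34 genes was 4353 to 4633 CPM in WT Non-Tg, 4103 to 4355 CPM in KO Non-Tg, 4723 to 5240 CPM in WT Tg-SwDI and 5155 to 5473 CPM in KO Tg-SwDI mice. Psap, Ids, Gaa and Lamp1 make up most of this sum.

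Of 76 further lysosomal genes outside the list, among them the cathepsins, other hydrolases, membrane proteins, sorting receptors and nutrient-sensing genes, 75 could be tested. With the transgene 15 rose and none fell in WT mice, and 30 rose and 3 fell in KO mice, with medians of 0.06 and 0.15 on the log2 scale. The shares of all genes called are those given above for these comparisons. Of the hydrolases, these were 8 of 24 in WT and 15 of 24 in KO mice. Of the 27 membrane proteins and transporters 6 rose in WT, and 11 rose and 2 fell in KO mice, and of the 9 sorting and maturation genes 0 rose in WT and 1 in KO mice. Of the 15 nutrient-sensing and TFEB-family genes, 1 rose in WT, and 3 rose and 1 fell in KO mice. The genes that fell in KO mice were Mfsd8 (-0.23 ± 0.07), Rragb (-0.20 ± 0.05) and Atp13a2 (-0.12 ± 0.04; edgeR, adjusted p = 0.0138, 0.00648 and 0.0411). In KO mice the count of 33 was 20, all higher, with the choroid plexus score as a covariate, and 34, with 23 higher and 11 lower, once GC content and length trends were removed.

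The 4 largest rises were in Gpnmb, Lyz2, Cd68 and Slc15a3 in both genotypes. Gpnmb, a transmembrane glycoprotein of stressed lysosomes, stood at 8.13, 7.24, 8.69, 8.25 and 8.35 CPM in WT Non-Tg and at 67.4, 55.2, 61.1, 92.3 and 61.2 CPM in WT Tg-SwDI mice. In KO mice Gpnmb stood at 6.51, 7.21, 8.73, 7.196 and 7.69 CPM without and at 106, 112, 87.8, 83.9 and 111 CPM with the transgene. It rose by 3.05 ± 0.13 in WT and 3.74 ± 0.13 in KO mice, with no overlap (edgeR, adjusted p = 1.39e-12 and 2.3e-14). Cd68, a glycosylated membrane protein of phagocyte lysosomes, stood at 13.9, 11.2, 12.5, 11.3 and 10.02 CPM in WT Non-Tg and at 50.1, 49.6, 51.4, 60.3 and 47.6 CPM in WT Tg-SwDI mice. In KO mice Cd68 stood at 10.4, 10.9, 8.73, 8.64 and 9.63 CPM without and at 79.2, 80.5, 70.4, 68.7 and 116 CPM with the transgene. It rose by 2.13 ± 0.13 and 3.1 ± 0.13, and the KO Tg-SwDI mice were all above the WT Tg-SwDI mice (edgeR, adjusted p = 3.11e-10 and 4.65e-13). Lyz2, lysozyme, rose by 2.19 ± 0.19 and 3.11 ± 0.19, and Slc15a3, a peptide and histidine transporter, by 1.95 ± 0.16 and 2.89 ± 0.16. Lyz2 ran from 7.69 to 16.5 CPM in WT Non-Tg and from 44.0 to 61.7 CPM in WT Tg-SwDI mice, and from 5.69 to 12.01 CPM and 68.3 to 85.6 CPM in the KO groups. Slc15a3 was low, from 1.46 to 2.70 CPM and 6.71 to 9.71 CPM in the WT groups and from 1.30 to 1.98 CPM and 10.4 to 15.8 CPM in the KO groups. For both genes no Tg-SwDI mouse was in the Non-Tg range of its genotype.

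Between KO and WT Tg-SwDI mice, 7 of the 75 genes were higher and none was lower. They were Cd68 (0.68 ± 0.12), Gpnmb (0.57 ± 0.11), Slc15a3 (0.56 ± 0.14), Man2b2 (0.32 ± 0.07), Scpep1 (0.30 ± 0.08) and Nagpa (0.30 ± 0.08), with 1 more not named here. The adjusted p of those named ran from 0.00635 for Cd68 to 0.0466 for Scpep1 (edgeR). None of the 75 was called in Non-Tg mice, where 14 passed an unadjusted p of 0.05, 3 higher and 11 lower. The count of 7 was 3 with library size alone, 1 in the 10 mice compared, 4 with GC content and length trends removed, and 4 in the 9 libraries with little choroid plexus. It was 4 without KO Non-Tg replicate 8, 3, 4, 4 and 2 without WT Tg-SwDI replicate 3, 4, 5 and 7, and 4 without KO Tg-SwDI replicate 3.

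No member is on any of the marker lists for brain cell types, but microglial lists moved with the same comparisons. Of 14 markers of resting microglia, 13 were higher with the transgene in WT and 14 in KO mice, and 4 were higher in KO Tg-SwDI mice against WT Tg-SwDI mice, with medians of 0.78, 1.26 and 0.28 on the log2 scale. Their summed level was 497 ± 44.5 CPM in WT Non-Tg, 474 ± 13.7 CPM in KO Non-Tg, 960.2 ± 63.1 CPM in WT Tg-SwDI and 1206 ± 131 CPM in KO Tg-SwDI mice (SD, n = 5 each). Of 12 markers of plaque-associated microglia, all 12 were higher with the transgene in both genotypes and 6 were higher in the KO than the WT mice carrying it, with medians of 2.37, 3.13 and 0.44. Their summed level was 220.4 ± 21.7 CPM, 210.4 ± 8.56 CPM, 738 ± 56.2 CPM and 1018 ± 134 CPM in the same order of groups, and their most abundant gene was Axl. Markers of resting microglia and the lysosomal genes thus stood in the same order of groups, and the part of microglial number or state in the lysosomal differences was not tested.

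Of 8 astrocyte markers, 6 were higher in each genotype and 1 in KO against WT Tg-SwDI mice. Their summed level was 2468 ± 140.1 CPM in WT Non-Tg, 2479 ± 105 CPM in KO Non-Tg, 3687 ± 207 CPM in WT Tg-SwDI and 4431 ± 559 CPM in KO Tg-SwDI mice, with Aldoc the most abundant. Of 8 oligodendrocyte markers, led by Mbp, 1 was higher in WT and 5 in KO mice, with summed levels of 6229 ± 311 CPM and 6555 ± 181 CPM in WT and 5608 ± 398 CPM and 6746 ± 752 CPM in KO mice, without and with the transgene. Of 10 neuronal markers, led by Syt1, none was higher, and 2 were lower in KO mice. None of 6 border macrophage markers (led by Mrc1), 8 endothelial and mural markers (Flt1) or 4 tested blood markers (Hbb-bs) was called in either transgene comparison. Of 15 choroid plexus markers, led by Ttr, 0 were called in WT and 13 in KO mice, with medians of 0.41 and 3.13. Their summed level was 460 ± 176 CPM in KO Non-Tg and 4005 ± 2202 CPM in KO Tg-SwDI mice, against 3166 ± 2881 CPM and 4485 ± 2297 CPM in the WT groups. No marker of any of these lists was at 0 in all libraries of a group.

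**Figure D5:**
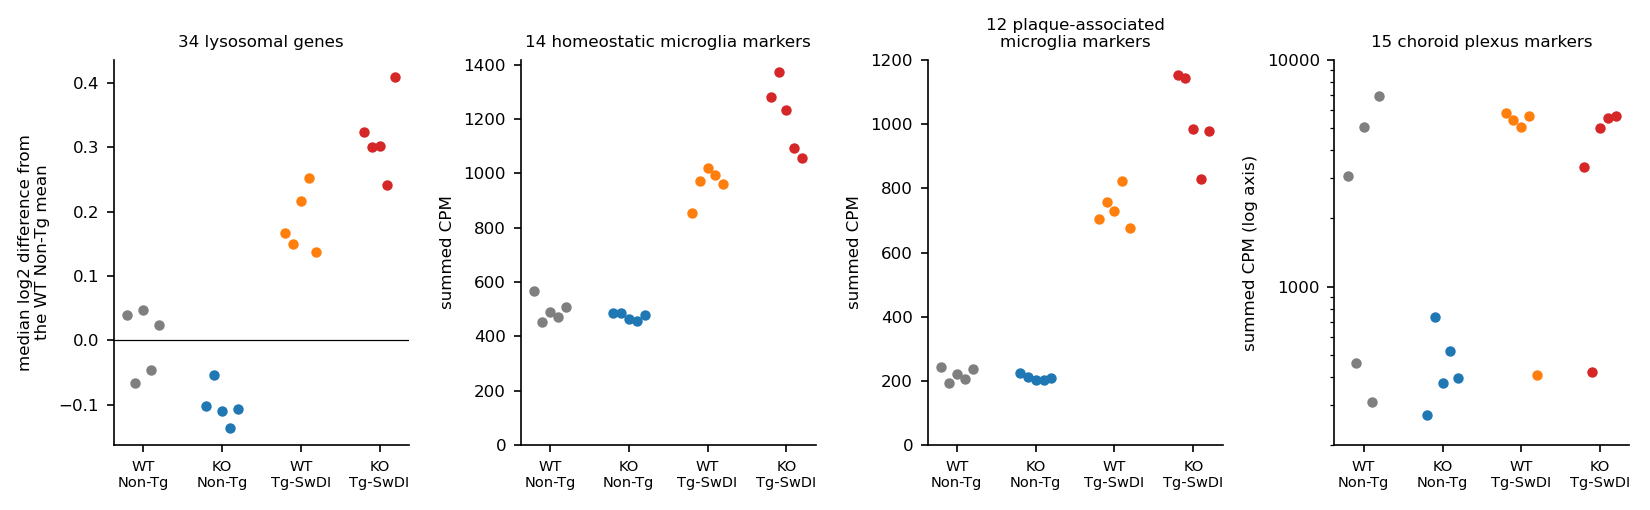
Each point is 1 mouse, in 4 groups: the median log2 difference of the 34 lysosomal genes from their WT Non-Tg mean, and the summed CPM of 14 resting microglia, 12 plaque-associated microglia and 15 choroid plexus markers (last panel on a log axis). The lysosomal median and both microglial sums separate all Tg-SwDI from all Non-Tg mice, while choroid plexus is low in all 5 KO Non-Tg mice, in WT Non-Tg replicates 3 and 6, in WT Tg-SwDI replicate 7 and in KO Tg-SwDI replicate 2.

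For 11 of the 34 genes the annotated exons share bases with another gene, so that reads may have been assigned to either. For all but Glb1 this depends on a strand setting that is not given in the sources used here. Glb1 shares 5.5% of its exonic length with Tmppe on the same strand, where a strand setting does not separate them. The shared part was 32.3% of the exonic length of Arsb (with Gm26527), 18.8% of Arsa (C230037L18Rik), 12.8% of Hexa (Tmem202), 9.3% of Lamp1 (Grtp1) and 7.6% of Cln3 (Apobr). It was 2.0% of Grn (Fam171a2), and Slc11a1, Laptm5, Gusb, Man2b1, Gm2a, Naglu and Npc2 had none.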

How the data were processed

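Total RNA of the left hippocampus was purified with oligo(dT) beads and sequenced as stranded libraries on the DNBSEQ platform. The deposited table holds raw read counts per Ensembl gene for 20 libraries, made by the authors with STAR, the mm10 genome and featureCounts, as the study's methods and the submitters' processing notes name them. Versions, the strand setting and the treatment of reads that map to several places are not given in the sources used here. Symbols and exon lengths came from GENCODE M21, which matched 38872 of 39056 identifiers (99.5%).

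From the counts, genes were kept by edgeR's filterByExpr (minimum count 10, minimum total 15), scaled by TMM and fitted with 4 group means over all 20 mice (16 residual degrees of freedom), in R 4.3.3 with edgeR 4.0.16 and limma 3.58.1. Robust quasi-likelihood tests gave 5 contrasts, adjusted by Benjamini-Hochberg over 16107 genes. A gene was called at an adjusted p under 0.05. CPM used TMM-scaled totals, RPKM also divided by exonic length, and ± after a log2 fold change is its standard error. The steps were tested on simulated data. Alternatives were RLE factors, library size alone, no filter, a mean CPM of at least 1, DESeq2 1.42.0, edgeR's exact test, only the 10 mice compared, a replicate block, a choroid plexus score as covariate, GC content and length trends removed (mgcv 1.9.3), and leaving out each mouse. Motif searches used Python 3.11.15. Counting error was small beside the spread between mice for abundant genes but not for the lowest ones. The labels name each library as a separate mouse. Pairs of libraries of a group differed by at least 2.38 chi-square units per gene, so that none was counted as a duplicate. The pairs with KO Tg-SwDI replicate 8 stood at 40.2 to 60.7 units, and all other pairs at up to 17.6. This library also had the lowest TMM factor, 0.901, where the others ran from 0.981 to 1.03.

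The 34 genes, the other gene lists, the tests and the rule for naming genes were chosen with earlier results of these data known, so that a list's direction is not independent evidence. Named with values were genes called between KO and WT Tg-SwDI mice or in the interaction, the 8 largest called in each transgene comparison, Tfeb, Tfe3, genes called nowhere, and of other lysosomal genes the 5 largest called. Some genes that meet this rule are not reported here. Genes called lower and the most abundant gene of each marker list were named as well.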

Additional observations from a re-analysis of the deposited data

Results flagged for a closer look

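Of 136 combinations of gene and group examined for a single far-off mouse, 6 had one by Dixon's criterion, and chance gives about 1 in 20. Ids stood at 714 CPM in KO Non-Tg replicate 1, where the other 4 mice lay between 648 and 658 CPM. Gaa stood at 423 CPM in WT Tg-SwDI replicate 6, where the others lay between 384 and 388 CPM, so that the lower Gaa level of the remaining WT Tg-SwDI mice has this mouse as its exception. Tpp1 stood at 164 CPM in KO Tg-SwDI replicate 8 against 114 to 121 CPM, and Tfe3 at 56.2 CPM in the same mouse against 46.2 to 48.8 CPM. This is the library with 14.6% mitochondrial counts, and without it the Tfe3 difference between KO and WT Tg-SwDI mice was still called. Tfeb stood at 14.6 CPM in KO Tg-SwDI replicate 2 against 11.1 to 11.8 CPM, and Ppt1 at 103 CPM in WT Non-Tg replicate 3 against 105 to 107 CPM, a gap of little size.

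The transgene difference was larger in KO than in WT mice, by the interaction term of edgeR's quasi-likelihood fit, for 5 members and for other lysosomal genes. Among the members these were Slc11a1 (1.02 on the log2 scale, adjusted p = 0.0156), Grn (0.63, adjusted p = 0.00861), Man2b1 (0.53, adjusted p = 0.0199), Gusb (0.49, adjusted p = 0.0264) and Gm2a (0.41, adjusted p = 0.0199). The others reported here were Cd68 (0.97, adjusted p = 0.0199), Scpep1, a serine carboxypeptidase (0.56, adjusted p = 0.0216) and Man2b2, an alpha-mannosidase (0.44, adjusted p = 0.0305).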

How the results depend on the processing

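No member changed direction while called under any alternative. The transgene counts stayed within 1.5 times, at 10 to 15 in WT and 20 to 30 in KO mice, and at 13 to 15 and 28 to 30 when single mice were left out. KO against WT in Non-Tg mice gave 0 members throughout. The 9 members called between KO and WT Tg-SwDI mice became 1 (library size alone), 2 (10 mice compared), 3 (GC content and length trends removed) and 2 (9 libraries with little choroid plexus), and 1 to 8 when single mice were left out. The interaction count of 5 became 9 with DESeq2 and 2 in the 9 libraries, and 2 to 7 when single mice were left out. Among other lysosomal genes, the KO transgene count of 33 became 20 with the choroid plexus covariate and ran from 27 to 36 without single mice. Their count of 7 between KO and WT Tg-SwDI mice became 3, 1, 4 and 4 under the same settings as the members, and 2 to 9 without single mice. Their interaction count of 4 became 2 (library size alone), 11 (DESeq2), 0 (covariate) and 1 (GC content and length). It ran from 0 to 9 without single mice: 0 without WT Non-Tg replicate 2 or KO Non-Tg replicate 7, 1 without WT Tg-SwDI replicate 7, 2 without WT Non-Tg replicate 4 or 7, KO Non-Tg replicate 1 or 8 or WT Tg-SwDI replicate 3 or 5, and 8, 9 and 7 without WT Non-Tg replicate 3, KO Tg-SwDI replicate 2 and KO Tg-SwDI replicate 8. The causes were not tested.

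The replicate numbers in the labels did not pair the mice: same-numbered mice of different groups correlated in their deviations with a median r of -0.04 (16 pairs, 2 over 0.1). With the replicate block the members called were 12 (Lamp2 lost) and 26 (Psap, Neu1, Gla and Arsb lost) for the transgene in WT and KO mice and 1 between KO and WT Tg-SwDI mice, and the other lysosomal genes gave 0 there and 1 for the interaction, on 9 residual degrees of freedom. Depth limits the lowest members most: Slc11a1 had 40 counts in its weakest library.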
